A study of Mus musculus with 4 samples.

Results

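The core circadian clock genes are the 10 genes whose products form the transcriptional feedback loop of the daily clock: *Arntl* (also named *Bmal1*), *Clock*, *Npas2*, *Per1*, *Per2*, *Per3*, *Cry1*, *Cry2*, *Nr1d1* and *Nr1d2*. They were found by gene name among the non-control probes of a dual-colour whole mouse genome microarray. All 10 genes were on the array, with 19 probes of 41174 probes in all, which carried 26582 gene names.

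Liver RNA came from male C57BL/6J mice, bought at 8 weeks of age and made obese by a high-fat diet of 14 weeks (diet-induced obese, DIO, at least 40 g). All were kept under 12 h of light and 12 h of dark and had free access to the high-fat diet throughout the treatment that follows. For 11 days they received 2 µL into the nose once daily, either porcine GALP (1-60) in saline with α-cyclodextrin or saline. GALP, galanin-like peptide, is a neuropeptide of the hypothalamus. The GALP mice were divided by how much weight they lost, and the RNA of 4 mice made up the greater weight loss pool and that of the other 4 the less weight loss pool. A single pool of 8 saline mice served as the control of both, so the 2 comparisons share it. Every GALP pool met the control on a pair of arrays with the dyes exchanged, once with GALP in Cy5 and once with GALP in Cy3, which gave 4 arrays on 1 slide. Nothing here separates one animal from another: n is 2 GALP pools, and the spread among saline mice is absent from every SD and test because their pool is 1 sample. The GALP pools were sorted by response, so the SD between them also holds any difference that goes with weight loss. In pooled tissue, fewer cells of a type and less RNA per cell cannot be told apart. The time of day at which livers were taken is not given in the sources used here.

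In the clock, the BMAL1 protein pairs with CLOCK or with NPAS2 and switches on the *Per* and *Cry* genes and *Nr1d1* and *Nr1d2* through E-boxes. PER and CRY proteins return to the nucleus and inhibit that pair. The REV-ERB receptors, encoded by *Nr1d1* and *Nr1d2*, repress *Arntl*, and the ROR receptors activate it at the same elements. In liver these transcripts rise and fall over the day, and feeding time sets their phase.

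The probe is what each value rests on, so the probe of the 1 clock gene that was called, *Nr1d1*, and those of its partners in the loop are shown first. Each probe has 60 bases and 1 spot per array. Positions are on mm9, the build that the file headers give, and these headers name no exon or intron. The *Nr1d1* probe (NM_145434) lies on the minus strand at chr11:98630526-98631028, a span of 503 bases for 60 bases of probe, so its bases are not contiguous in the genome, and it is printed whole. The other lines hold the first 30 bases of the probe with the highest signal, at chr7:120456978-120457007 on the plus strand for *Arntl* (NM_007489), chr5:76641407-76641436 on the minus strand for *Clock* (NM_007715), and chr14:19037283-19037312 on the minus strand for *Nr1d2* (NM_011584).
Nr1d1: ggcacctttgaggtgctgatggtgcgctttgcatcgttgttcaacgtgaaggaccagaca
Arntl: aacccccacataggcatcgatatgatagat
Clock: ttcccatttgagttgctcttgtaatatttt
Nr1d2: ccagaactgttagtattgcttgtgatgctt

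The regulatory sequences of *Nr1d1* and *Arntl* are shown because these genes had the lowest log2 ratios among the members with signal and stand on either side of the REV-ERB arm of the loop. Both come from RefSeq on GRCm38.p6 and run from 250 bases before to 50 bases after the annotated start of transcription, in the direction of the gene. Capitals mark the motif found, and positions count from 0 at the start. Searched on both strands were the E-box CACGTG, the E-prime box CACGTT, the ROR element core TAGGTCA and the D-box TTATGTAA. The *Nr1d1* promoter, at chr11:98775328-98775627 on the minus strand, holds an E-prime box at position -28, which reads AACGTG in the direction of the gene. The second of 2 *Arntl* promoters, at chr7:113207261-113207560 on the plus strand, holds a ROR element core at position 30.
Nr1d1: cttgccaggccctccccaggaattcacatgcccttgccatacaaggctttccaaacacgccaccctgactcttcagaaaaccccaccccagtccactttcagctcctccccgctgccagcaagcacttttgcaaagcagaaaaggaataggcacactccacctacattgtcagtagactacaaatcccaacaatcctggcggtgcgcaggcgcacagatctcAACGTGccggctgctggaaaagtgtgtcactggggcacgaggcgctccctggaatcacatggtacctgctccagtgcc
Arntl: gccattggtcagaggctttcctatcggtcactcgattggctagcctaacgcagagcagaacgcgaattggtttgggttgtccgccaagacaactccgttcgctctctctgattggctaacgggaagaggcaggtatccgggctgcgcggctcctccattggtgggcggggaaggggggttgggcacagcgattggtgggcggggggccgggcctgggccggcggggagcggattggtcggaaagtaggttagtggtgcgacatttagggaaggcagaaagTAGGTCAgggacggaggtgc

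The table of promoters held 13 windows for 9 of the 10 members and none for *Per2*. An E-box was found for 2 members, *Per1* at position -166 and *Cry1* at position -60. An E-prime box was found for 3, *Nr1d1*, *Cry1* at position -79 and *Cry2* at position -166. The ROR element core was found for *Arntl* alone and the D-box for *Per3* alone, at positions -205 and -158. Of 32851 mouse promoters of the same length, 7.15% held the E-box, 4.68% the E-prime box, 2.61% the ROR element core and 0.938% the D-box. These matches describe the windows and show no binding.

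Whether a clock gene could be read at all was the first question. Of the 19 probes, 7 were well above background in all 8 channels (GALP and control on 4 arrays), 5 in some channels and 7 in none. Each gene is represented by its brightest probe on average. By that probe 7 genes were read in at least 7 channels: *Arntl*, *Clock*, *Per1*, *Per2*, *Cry2*, *Nr1d1* and *Nr1d2*. *Npas2*, a paralog of *Clock*, and *Per3*, a period gene, were not well above background in any channel, so neither has a ratio to report. *Cry1*, a cryptochrome and strong repressor in the loop, was read only on the arrays with GALP in Cy3. Signals of different probes are not compared, since each probe has its own brightness.

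**Figure D1:**
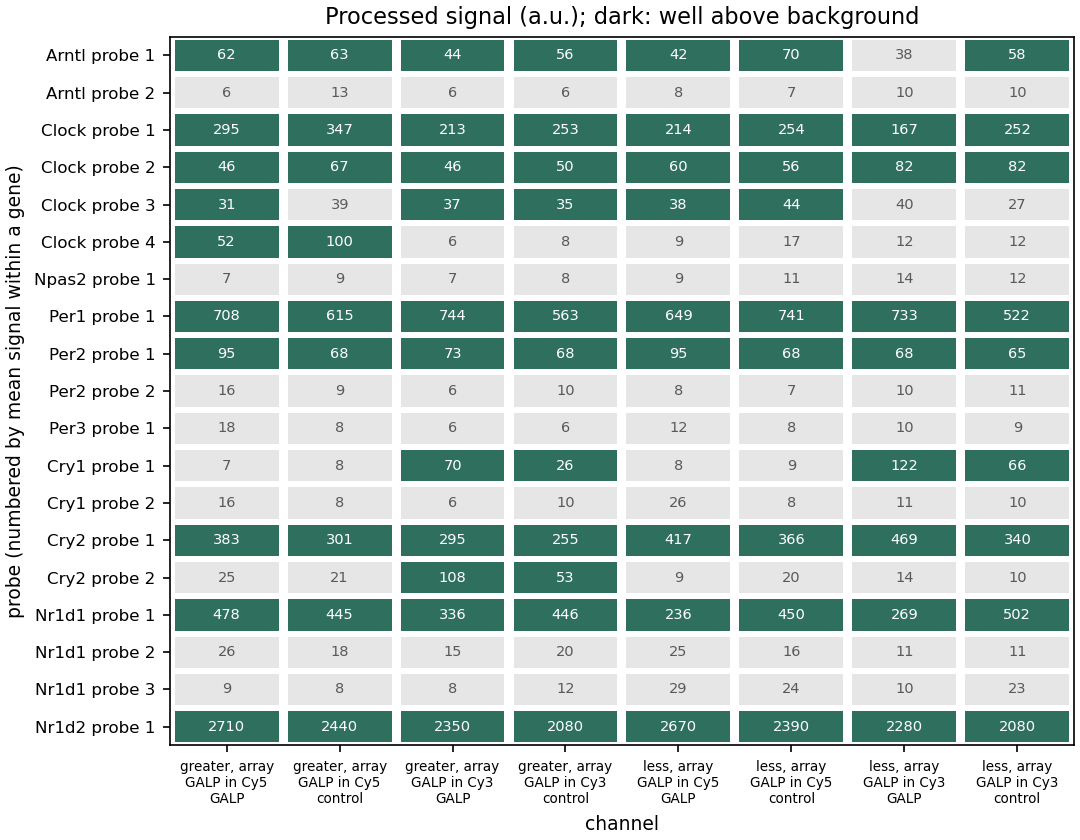
Processed signal (arbitrary units, printed in each cell) of all 19 clock gene probes, rows, in the 8 channels, columns, with dark cells for spots well above background. 7 of the probes are dark in every column and 7 in none, and the first *Cry1* probe is dark only on the arrays with GALP in Cy3.

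Markers of other tissues differed between the pools, and they stand before any clock gene. Hepatocyte markers were well above background throughout (5 of the 5 on the array) with log2 ratios from -0.19 to 0.29 in the greater weight loss pool and from -0.56 to 0.11 in the less weight loss pool. All 5 markers of pancreatic acinar cells were lower in the greater weight loss pool, with log2 ratios from -4.11 to -2.88, and higher in the less weight loss pool, from 0.71 to 0.88, and each was called in both. Skeletal muscle markers ran the other way. Of 5 with signal in at least 4 channels, all were higher in the greater weight loss pool (0.02 to 0.81, 1 called) and all lower in the less weight loss pool (-2.88 to -1.62, 4 called). Of 6 stomach markers, 3 had signal, and their log2 ratios ran from -5.09 to -3.63 and from -4.51 to 0.68. All 3 were called lower in the greater weight loss pool. In the less weight loss pool 2 were called lower and 1 higher, so 2 of them set both pools apart from the control. Blood and immune markers ranged from -0.03 to 0.80 and from -0.71 to 0.44, endothelial markers from 0.07 to 0.15 and from 0.01 to 0.19, and the 1 adipose marker with signal gave 0.38 and -0.26. On each array 40.5% to 46.7% of spots in a channel were well above background and 0 were saturated. Over the 14453 probes with signal in all channels, log2 ratios of the 2 arrays of a pool correlated across probes with r = 0.54 in the greater and r = 0.26 in the less weight loss pool, arrays of different pools in the same dye orientation with r = 0.41 and 0.33, and those of different pools in opposite orientations with r = 0.09 and 0.06. Arrays of different pools that shared a dye orientation were thus more alike than the 2 arrays of the less weight loss pool.

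As a set, the 7 genes with signal were split: 4 were above 0 in both pools (*Per1*, *Per2*, *Cry2*, *Nr1d2*) and 3 below 0 in both (*Arntl*, *Clock*, *Nr1d1*), although with normexp background correction and loess *Arntl* was at 0.03 and *Cry2* at 0.00 in the greater weight loss pool. Their mean log2 ratios of GALP over control ran from -0.53 to 0.30. The median of their absolute values was 0.30, against 0.10 for all probes with signal in every channel, whose median ratio was -0.02. With normexp and loess these medians were 0.09 and 0.06. Without *Arntl*, which had 1 dim channel and is not among the probes with signal in every channel, the clock genes had a median of 0.30, and of 0.14 with normexp and loess. Of the 7 genes, 5 had the same direction on all 4 arrays, *Arntl* and *Clock* below 0 and *Per2*, *Cry2* and *Nr1d2* above 0. Among all probes with signal in every channel 27.9% (4027 probes) had the same direction on all 4 arrays. That set leaves out *Arntl* and holds a second *Clock* probe. Of its clock probes, those of *Per1* and *Nr1d1* and the second of *Clock* did not share a direction.

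Calls followed the rule of the methods, read strictly: a fold over 1.5 or under 0.75, with a p-value of the scanner software under 0.01 and the same direction on every array used. That p-value compares the extracts on 1 array and carries no spread between animals. With both pools required, 0 of 19 clock probes were called higher and 0 lower, where the rule called 0.0585% and 0.132% of all 41037 probes. In the greater weight loss pool 0 were called higher and 0 lower (background 0.292% and 0.395%). In the less weight loss pool 0 were called higher (background 0.234%) and 1 lower, the *Nr1d1* probe shown above (background 0.363%, and 0.768% among probes with signal in every channel). By limma on the 2 pool ratios against 0, p-values were adjusted over all probes after Benjamini-Hochberg. An adjusted p under 0.05 was reached by 0 clock probes and 0.0% of all probes. The unadjusted limma p was under 0.05 for 5 of the 19 clock probes and 4759 of all 41037. These were the first probes of *Per2*, *Cry2*, *Nr1d2* and *Per3* and the fourth of *Clock*. Of them, the *Per3* probe was well above background in no channel and the *Clock* probe in 2. With 1 residual degree of freedom the smallest adjusted p was 0.374, on the whole array as among the clock probes. On simulated data limma found 45 of 200 probes that had been changed by 3 on the log2 scale. A lack of limma calls therefore does not show a lack of change. Every limma value below is adjusted over the 41037 probes.

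**Figure D2:**
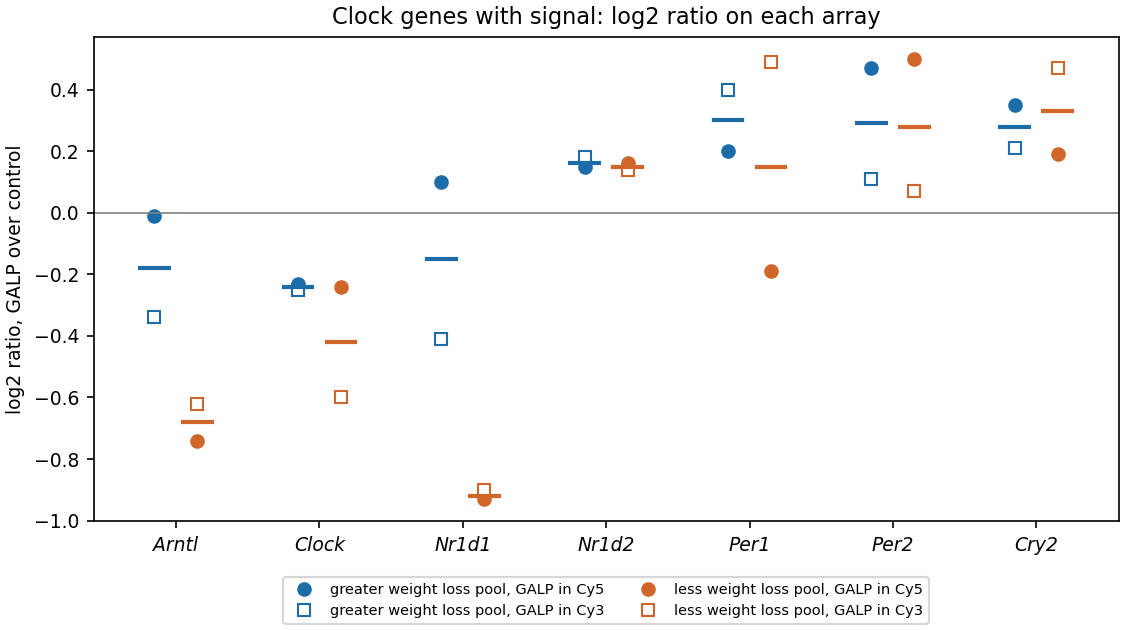
Log2 ratio of GALP over control (y axis) for the 7 clock genes with signal (x axis), with 1 point per array, filled for GALP in Cy5 and open for GALP in Cy3, and a bar for the mean of each pool. *Nr1d1* sits near -0.9 on both arrays of the less weight loss pool and on either side of 0 in the greater weight loss pool, whereas the points of *Nr1d2* lie between 0.14 and 0.18.

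The activators had log2 ratios below 0 in both pools, and neither gene was called. *Arntl* encodes BMAL1, without which the loop does not run. Its processed signal (arbitrary units) was 62.0 and 44.2 in the greater weight loss pool (GALP in Cy5, then in Cy3) and 41.9 and 38.0 in the less weight loss pool, against 62.6, 56.1, 69.9 and 58.5 for the control on the same arrays. Both signals of the less weight loss pool lay below all 4 control signals, and the greater weight loss pool overlapped the control. The 38.0 was not well above background.

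In log2 ratios, *Arntl* gave -0.01 and -0.34 in the greater and -0.74 and -0.62 in the less weight loss pool. The mean was -0.43 ± 0.36 (SD, n = 2 pools; limma adjusted p = 0.702), and the less weight loss pool was at 0.624 of the control. The scanner software gave a p-value under 0.01 on 0 of 4 arrays. With normexp background correction and loess in place of the software's signals the mean was -0.01 and the ratio of the less weight loss pool -0.05. The second *Arntl* probe was not well above background in any channel.

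*Clock* encodes the usual partner of BMAL1. Its signal was 295 and 213 in the greater and 214 and 167 in the less weight loss pool, against 347, 253, 254 and 252 in the control. GALP lay below the control on each array, although the signals of the greater weight loss pool overlapped the range of the control. The log2 ratios were -0.23 and -0.25 in the greater and -0.24 and -0.60 in the less weight loss pool, with a mean of -0.33 ± 0.12 (SD, n = 2 pools; limma adjusted p = 0.492). With normexp and loess it was -0.09.

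The probes of *Clock* disagreed. Its second probe, also with signal in all 8 channels, gave -0.55 and -0.11 in the greater and 0.12 and 0.01 in the less weight loss pool, a mean of -0.13 ± 0.28 (SD, n = 2 pools). The third, with signal in 5 channels, had a mean of 0.03 ± 0.22 (SD, n = 2 pools). The fourth was well above background only in both channels of 1 array, at 51.7 for GALP and 99.9 for the control, and between 6.08 and 17.4 in the channels of the other arrays. Over the whole array 332 probes were read on that array alone in this way, and 220 to 1647 on each of the other arrays alone.

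Among the repressors, *Per1*, *Per2* and *Cry2* had pool ratios above 0 in both pools, all under 1.5-fold, and none was called. PER1 and PER2 are the period proteins that carry the negative limb together with the cryptochromes. *Per1* had signals of 708 and 744 in the greater and 649 and 733 in the less weight loss pool, against 615, 563, 741 and 522 in the control. The control's own range spanned those of the less weight loss pool.

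On the log2 scale *Per1* gave 0.20 and 0.40 in the greater and -0.19 and 0.49 in the less weight loss pool, so its arrays did not share a direction in the less weight loss pool. The mean was 0.23 ± 0.11 (SD, n = 2 pools; limma adjusted p = 0.548).

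*Per2* had signals of 94.7 and 73.2 in the greater and 95.3 and 67.9 in the less weight loss pool, against 68.2, 67.8, 67.5 and 64.9 in the control. GALP in Cy5 stood clear of the control in both pools and GALP in Cy3 came close to it. The log2 ratios were 0.47 and 0.11 in the greater and 0.50 and 0.07 in the less weight loss pool. The pool means were nearly alike, 0.29 ± 0.01 (SD, n = 2 pools; limma adjusted p = 0.374), while the dye orientations of a pool differed by 0.36 and 0.43 on the log2 scale, more than the pools did. With normexp and loess the mean was 0.06. A second *Per2* probe was not well above background in any channel.

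*Cry2*, the second cryptochrome, had signals of 383 and 295 in the greater and 417 and 469 in the less weight loss pool, against 301, 255, 366 and 340 in the control. GALP was above the control on all 4 arrays, and both signals of the less weight loss pool were above all control signals. The control was itself brighter on the arrays of that pool, at 366 and 340 against 301 and 255. The log2 ratios were 0.35 and 0.21 in the greater and 0.19 and 0.47 in the less weight loss pool, with a mean of 0.30 ± 0.03 (SD, n = 2 pools; limma adjusted p = 0.374). With normexp and loess it was 0.05, and 0.00 in the greater weight loss pool alone.

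The other probes of the cryptochromes are shown because both were read on some arrays only. The first line holds the first 30 bases of the *Cry1* probe with the highest signal (NM_007771), at chr10:84594761-84594790 on the minus strand of mm9, whose 60 bases have a GC content of 23.3%. The other is the whole second *Cry2* probe (NM_009963), with a GC content of 55.0%, at chr2:92254083-92256348 on the minus strand, a span of 2266 bases.
Cry1: ttttcatgtatggtaaaagttaaagttaac
Cry2 second probe: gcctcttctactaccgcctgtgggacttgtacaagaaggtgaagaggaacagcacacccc

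On the arrays with GALP in Cy3, *Cry1* had signals of 70.0 for GALP and 25.8 for the control in the greater weight loss pool, and of 122 and 66.4 in the less weight loss pool. On the arrays with GALP in Cy5 all 4 signals lay between 7.12 and 8.53, and the software set the ratio to 0. The log2 ratios were therefore 0.00 and 1.44 in the greater and 0.00 and 0.87 in the less weight loss pool. Both ratios away from 0 had a software p-value under 0.01, but the same RNA of GALP mice and of control mice gave no signal on the other 2 arrays. These ratios and their means are therefore not read as a fold of *Cry1*. Of all probes, 86 were read in this way on the arrays with GALP in Cy3 and on no other array, and 24 on those with GALP in Cy5. The second *Cry2* probe was well above background on 1 array only, at 108 for GALP in the greater weight loss pool and 52.8 for the control, and its log2 ratios on the 4 arrays ran from -1.23 to 1.04.

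The REV-ERB genes differed from each other, with *Nr1d1* the 1 clock gene called in any comparison. *Nr1d1* encodes REV-ERBα, a heme-binding nuclear receptor that represses *Arntl* and genes of lipid metabolism in liver. Its signal was 478 and 336 in the greater and 236 and 269 in the less weight loss pool, against 445, 446, 450 and 502 in the control. The less weight loss pool lay well below every control signal, and the greater weight loss pool stood above the control on 1 array and below it on the other.

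The log2 ratios of *Nr1d1* were -0.93 and -0.90 in the less weight loss pool, which put it at 0.530 of the control, with a software p-value under 0.01 on 2 of 2 arrays. In the greater weight loss pool they were 0.10 and -0.41, with such a p-value on 0 of 2 arrays. The mean over the pools was -0.53 ± 0.54 (SD, n = 2 pools; limma adjusted p = 0.702). With normexp and loess the less weight loss pool was at -0.43, only just past the fold limit of 0.75. *Nr1d1* was still called there, with the software p-value carried over and not recomputed. The other 2 *Nr1d1* probes were not well above background in any channel, so the call rests on 1 probe.

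*Nr1d2* encodes REV-ERBβ, which shares much of the role of REV-ERBα. It had signals of 2710 and 2350 in the greater and 2670 and 2280 in the less weight loss pool, against 2440, 2080, 2390 and 2080 in the control. GALP was above the control of its own array each time, by a similar step, although the ranges overlapped. The log2 ratios were 0.15 and 0.18 in the greater and 0.16 and 0.14 in the less weight loss pool, a mean of 0.16 ± 0.01 (SD, n = 2 pools; limma adjusted p = 0.374). When limma was fitted on the 4 arrays with the pool as a random block, *Nr1d2* was the 1 clock probe past the threshold (adjusted p = 0.0454, with 106 probes called in all). That fit takes the 4 arrays as its units, although they carry only 2 GALP extracts. Its consensus correlation between the arrays of a pool was negative (-0.389), which makes its standard errors smaller than those of 4 independent arrays. Over the alternatives of the test the smallest adjusted p among clock probes ran from 0.0454 to 0.578.

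**Figure D3:**
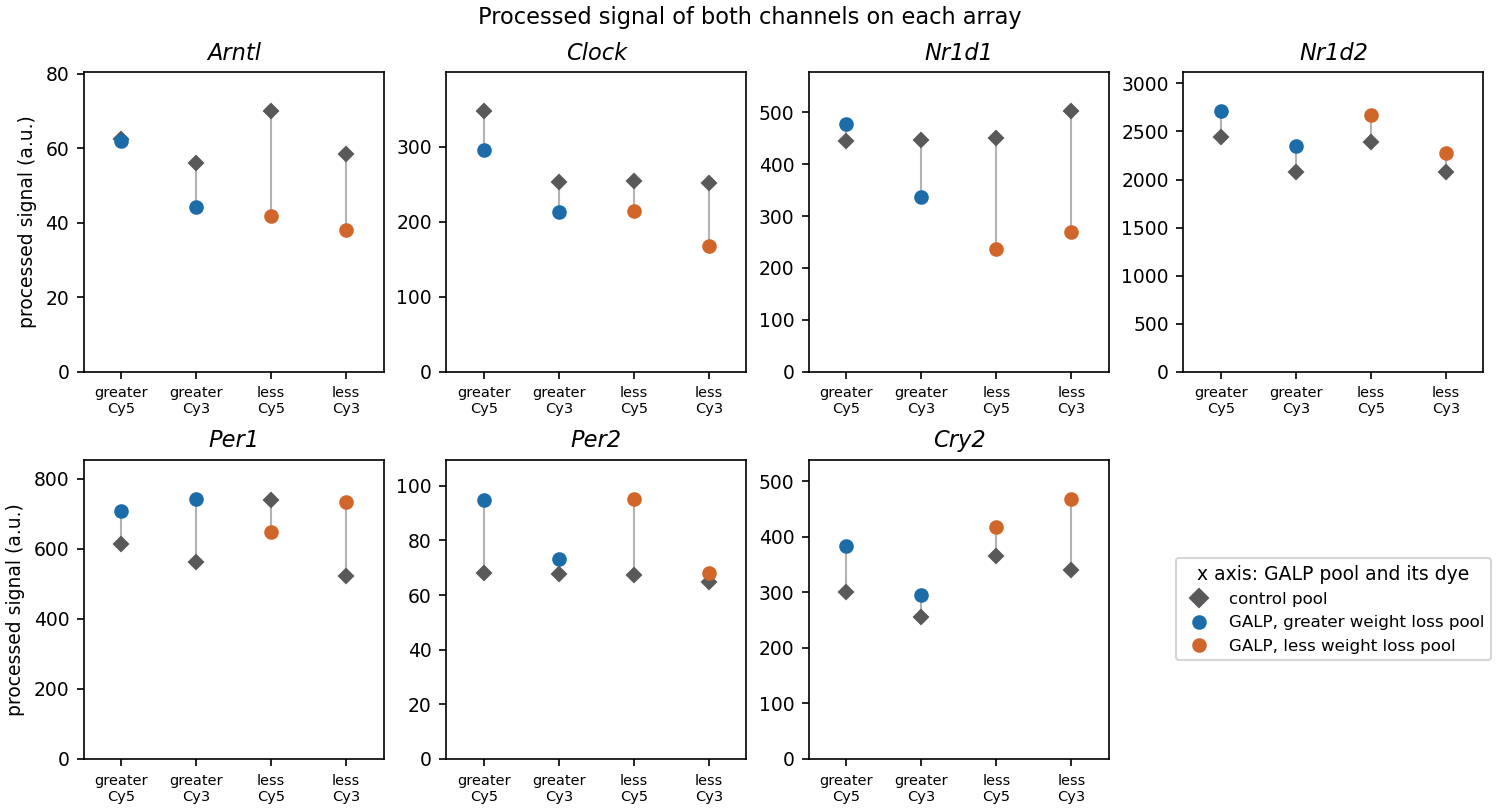
Processed signal (y axis, arbitrary units from 0) of GALP (circles) and control (diamonds) on each array (x axis: GALP pool and the dye of GALP) for the 7 clock genes with signal, with a line joining the channels of 1 array. For *Nr1d1* the control stays between 445 and 502 while GALP is at 236 and 269 in the less weight loss pool, and for *Nr1d2* GALP is above the control of its own array each time.

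The study had divided the mice by weight loss, so the pools were set side by side. The paper itself saw no significant difference between the results of the groups and went on with changes common to both. There is 1 pool on each side and no test of the difference. Of the 7 clock probes with signal in every channel, 1 differed by over 1.5-fold in the same direction in both dye orientations, and that was the *Nr1d1* probe, higher in the greater than in the less weight loss pool by 1.03 and 0.49 on the log2 scale (mean 0.76). Among all 14453 such probes 0.976% were higher in this way and 1.09% lower. *Arntl*, with 1 dim channel, was higher in the greater weight loss pool by 0.73 and 0.28 (mean 0.50). *Per2* and *Nr1d2* differed by 0.01 each on average.

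The control RNA was on every array, and its channels show the spread of a repeat measurement. After centring, the control signal of *Nr1d1* differed between the pools' arrays by -0.08 in Cy3 and -0.06 in Cy5 (log2, greater minus less), and the GALP signal by 0.39 in Cy3 and 0.95 in Cy5. For *Arntl* the control differed by -0.22 and 0.05 and GALP by 0.29 and 0.50. For *Clock* the control itself differed by 0.39 in Cy3, as much as the 0.42 of GALP in that dye. For *Cry2* the control differed by -0.35 in Cy3 and -0.30 in Cy5, and GALP by -0.60 and -0.19. Over all probes with signal the median absolute difference of the control was 0.136 in Cy3 and 0.141 in Cy5, and that of GALP 0.177 and 0.178. The GALP channels hold RNA of different mice, and the 95th percentile of their absolute differences over all these probes was 0.617 in Cy5 and 0.969 in Cy3, so the *Nr1d1* difference lay above it in Cy5 and below it in Cy3.

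The markers of other tissue differed between the same pools. The summed signal of the muscle markers was 2320 and 1710 in the greater and 272 and 336 in the less weight loss pool, against 1370 to 1630 in the control. That of the acinar markers was 10800 and 7690 in the greater and 178000 and 171000 in the less weight loss pool, against 97900 to 127000 in the control. The hepatocyte markers summed to 183000 and 136000, to 155000 and 147000, and to 135000 to 180000. The low *Nr1d1* and *Arntl* ratios were in the pool with the lowest muscle and the highest acinar signal, and the part of these tissues in the ratios was not tested.

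**Figure D4:**
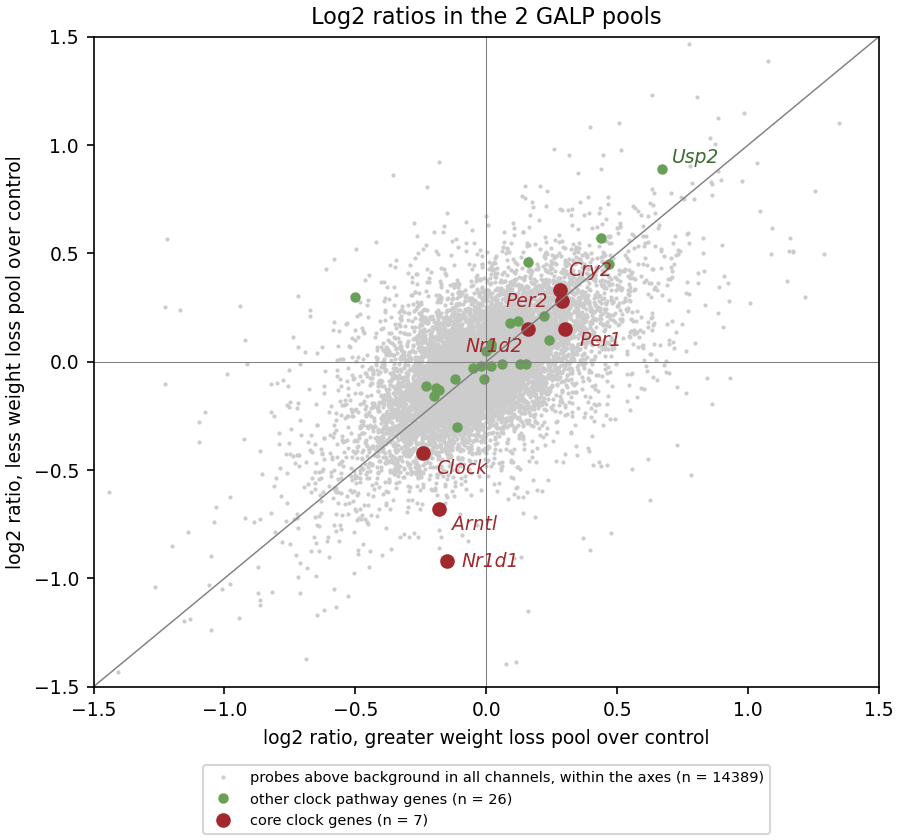
Log2 ratio over control in the less weight loss pool (y axis) against the greater weight loss pool (x axis), with grey points for 14389 probes with signal in all channels (64 more lie outside the axes), green for 26 other clock pathway genes and red for the 7 core clock genes; the diagonal marks equal ratios. *Nr1d1* and *Arntl* lie below the diagonal, at -0.15 and -0.92 and at -0.18 and -0.68, and *Per2* and *Nr1d2* lie on it.

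Over the 4 arrays the pattern of *Nr1d1* was most like those of *Hectd2*, a transcript named only by its identifier in the files (ENSMUST00000238030.1), *Gm38426*, *Gdf15* and *Lmod3*, by the Euclidean distance of log2 ratios among 10624 genes with signal in every channel (distances 0.25, 0.39, 0.45, 0.46 and 0.48). *Hectd2*, a ubiquitin ligase gene, gave -0.17 in the greater and -0.81 in the less weight loss pool. *Gdf15*, which encodes a stress-induced hormone, gave -0.27 and -0.65. *Lmod3*, a gene of skeletal muscle sarcomeres, gave 0.13 and -0.90. *Clock* ranked 189 among these genes, whereas *Nr1d2* ranked 8688 and *Per1*, *Per2* and *Cry2* ranked 9561 to 9950. *Arntl*, not ranked because of its dim channel, was at a distance of 0.36, and 1 ranked gene was nearer. The likeness rests on 4 arrays of 2 pools and is a description.

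The wider clock machinery was read from 33 further genes with 71 probes, of which 26 genes had signal in at least 7 channels. Of these 26, 11 were above 0 in both pools and 9 below 0 in both, with a median log2 ratio of 0.04. With both pools required, calls among the 71 probes numbered 0 higher and 0 lower (background 0.0585% and 0.132%), and 1 was called in the less weight loss pool, higher (background 0.234%). The loop factors, such as the ROR receptors that activate *Arntl*, had 3 of 7 genes with signal (1 above and 1 below 0 in both pools, median 0.07). All 4 D-box factors, which are outputs of the loop and bind D-boxes, had signal, 3 above 0 in both pools and 1 below (median 0.26). Of 12 kinases, ubiquitin ligases and related enzymes that set the stability of clock proteins 11 had signal (3 above, 4 below, median 0.00), and of 10 cofactors 8 (4 above, 3 below, median 0.04). These counts take the brightest probe of a gene, and other probes with signal in all channels at times went the other way. For a D-box factor counted as above 0, such a probe gave -0.16 in the greater and -0.26 in the less weight loss pool.

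The 1 called gene of these lists was *Usp2*, which encodes a deubiquitinase known to act on clock proteins. Its signal was 1450 and 1140 in the greater and 1650 and 1450 in the less weight loss pool, against 1060, 610, 980 and 707 in the control. All 4 GALP signals were above all 4 control signals. The log2 ratios were 0.44 and 0.90 in the greater and 0.75 and 1.03 in the less weight loss pool, with a mean of 0.78 ± 0.16 (SD, n = 2 pools; limma adjusted p = 0.401). *Usp2* was past 1.5-fold in both pools with 1 direction on all arrays, and missed the call in the greater weight loss pool because the software p-value was under 0.01 on 1 of its 2 arrays. Its other probe, with signal in all 8 channels, gave 0.57 in the greater and 0.71 in the less weight loss pool and was not called. No core clock probe passed either fold limit in both pools with 1 direction on all 4 arrays.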

How the data were processed

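Liver RNA of 2 GALP pools and 1 control pool was hybridised to 4 dual-colour Agilent arrays. The authors scanned the slide and extracted the spots with Agilent Feature Extraction (12.0.3.1 in the file headers, 11.0.1.1 in the labels). The deposited intensity of each channel is background-subtracted and dye-normalized by LOWESS. The deposited log10 ratio of a spot is Cy5 over Cy3, and the software wrote 0 if both signals were substitutes at background. The deposited p-value reflects the error model of the software for a single array. The deposited series table holds log10 ratios as GALP over control, and was used as an alternative.

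Ratios were put on the log2 scale with GALP as the numerator. Spots marked as outliers (232 to 319 of 43379 per array) were dropped, and repeated spots, then both arrays of a pool (the same extracts), were averaged. The saline channel carries a weight loss label, but following the paper it was treated as a single pool. limma 3.58.1 (lmFit, eBayes) in R 4.3.3 with the data.table package (1.17.8) tested the 2 pool ratios against 0 over the 41037 probes with a value on all arrays. For the repeat measurements of the control, each channel was centred on its median over probes with signal. Precision is limited by the number of arrays. The procedures were tested on simulated data, in which 200 probes were changed by 3 on the log2 scale. There limma recovered 45 of the 200, with 0 false calls. The fold and direction parts of the call rule, without the software p-value, recovered 199, and their false calls were not counted. Python 3.11.15, numpy 2.4.6, pandas 2.3.3 and matplotlib 3.10.9 were used.

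The genes named are all 10 members and clock pathway genes that were called or past the fold in both pools. Also named are the 5 genes most like the member with the largest absolute mean log2 ratio among those with signal in all 8 channels. Members and lists were chosen with earlier results of these data known. Alternatives were normexp (offset 50) with loess, median centring, the series table, no outlier filter, a filter on dim probes, a single dye orientation, a pool left out, other fold and p rules, the mean of a gene's probes, an intensity trend, and the pool as a random block.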

Additional observations from a re-analysis of the deposited data

How the results depend on the processing

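Of 262 recomputed values, 62 counts stayed within 1.5 times of their value. Most of these were counts of 0 that stayed 0, so they say little about stability. Among the log2 ratios, 183 kept their call or lack of one without turning sign, though not their size. Normexp and loess moved *Arntl* in the less weight loss pool from -0.68 to -0.05 and *Cry2* in the greater weight loss pool from 0.28 to 0.00. *Cry1* there moved from 0.72 to 0.13, where 0.72 is the mean of 1.44 and a 0.00 set by the software. With GALP in Cy5 alone *Cry1* was at 0.00 in both pools. The *Nr1d1* call in the less weight loss pool held under every setting run, at -0.93 to -0.43, but most settings tested it weakly. The software p-value was carried over and not recomputed where signals or ratios were replaced, so that part of the rule could not fail there. The series table, no outlier filter and the filter on dim probes left the ratio at -0.92. With normexp and loess, -0.43 was only just past the fold limit of 0.75. Using only the arrays with GALP in Cy3, 1 clock probe was called higher in both pools, 2 in the greater and 1 in the less weight loss pool, and *Cry1* had log2 ratios of 1.16 over both pools, 1.44 and 0.87. With only GALP in Cy5, 1 probe was called lower in the greater weight loss pool, *Per1* in the less weight loss pool turned to -0.19 and *Nr1d1* in the greater weight loss pool to 0.10. Without the p-value of the software, 1 probe was called higher and 1 lower in the greater and 3 lower in the less weight loss pool, and with that p-value asked of 1 array per pool, 1 higher and 1 lower in the greater weight loss pool. Leaving out each pool in turn, 0 to 1 probes were called lower and 0 higher, the 1 being *Nr1d1* without the greater weight loss pool. With normexp and loess *Arntl* in the greater weight loss pool turned to 0.03. The cause of these changes was not tested.

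With limma, 1 clock probe passed with the pool as a random block (consensus correlation -0.389) and 0 under the other settings, where the smallest adjusted p lay between 0.0909 and 0.578. No paired analysis was possible because replicate numbers mark the dye orientation of 1 pair of extracts, not separate animals. Signal limits the reading of 12 of the 19 probes, which were not well above background in at least 1 channel.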
